A study of Mus musculus with 11 samples.

Results

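The probes described here target 3543 genomic regions that carry coordinates in place of a gene name on an Agilent mouse expression array. They were chosen by their label alone: every non-control probe whose systematic name begins with a chromosome, followed by start, end and, for nearly all, a strand letter, F or R, on build mm9 per the file headers. The rule found 16194 probes among the 55681 non-control probes of the array, beside 27656 probes that carry the name of 1 of 20972 genes. Of the regions, 1067 had probes on both strands, 1251 on F only and 1222 on R only, and 3 regions with 13 probes had no strand letter. A region spanned a median of 7304 bp (quartiles 786.5 and 21807 bp, range 62 to 7128487 bp, with 1 region over 1 Mb), and a strand of a region held 1 to 10 probes with a median of 3. Whether each region lies outside all genes, and which genes lie next to it, was not analysed here, since no gene positions on mm9 were used.

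Regions of this kind are candidate long intergenic noncoding RNAs, transcripts without a long reading frame that lie between protein-coding genes. Many such RNAs are spliced and polyadenylated like messenger RNAs, and most are present at lower levels and in fewer cell types than messenger RNAs. A probe for each strand is needed because a transcript and an antisense transcript of the same interval are different RNAs. Some long noncoding RNAs act on the chromatin or transcription of genes near them, and others act elsewhere in the nucleus or in the cytoplasm.

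The arrays measured unsorted mouse embryonic stem (ES) cells of the 129/Ola background, kept for at least 3 passages in 1 of 3 media that all contain the cytokine LIF. Serum/LIF (3 samples) is the classical serum medium, 2i/LIF (5 samples) contains inhibitors of the kinases MEK and GSK3, and KOSR/LIF (3 samples) contains a serum replacement. Each sample comes from 1 of the ES lines E14, HVJu5.1 and HVJu9.3, with 1 sample per line in serum/LIF and KOSR/LIF. For 2i/LIF replicates 1 to 4 the sample titles and source names give different lines, so the line was not used as a covariate. Levels below are log2 of the background-subtracted Cy3 signal minus the array's 75th percentile, so that 0 is the 75th percentile of that array. Levels of different probes are not compared, because each probe has its own affinity.

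The 75th percentile of the signal lay between 176 and 538 intensity units on 10 arrays and at 65.3 on KOSR/LIF replicate 3, the dimmest array. The arrays were scanned on 3 days. The first holds serum/LIF replicates 1 and 2, 2i/LIF replicates 3 and 4 and KOSR/LIF replicates 1 and 2, the second 2i/LIF replicate 2 and KOSR/LIF replicate 3, and the third serum/LIF replicate 3 and 2i/LIF replicates 1 and 5. All 8 ES cell markers examined (Pou5f1, Sox2, Nanog, Esrrb, Zfp42, Klf4, Tdgf1 and Dppa5a) were well above background on all 11 arrays. Of 7 fibroblast markers, which feeder cells would carry, 6 to 7 were well above background on the serum/LIF arrays, 4 to 6 on those of 2i/LIF and 5 to 6 on those of KOSR/LIF. Summed over the list, the log2 level ran from 2.32 to 3.85, from 0.86 to 1.28 and from 2.92 to 3.76 in the same order. Of 5 trophoblast markers 4 to 5, 2 to 4 and 1 to 4 were well above background in those media, with summed log2 levels of 4.69 to 5.55, 3.37 to 4.13 and 3.26 to 3.92. The primitive endoderm markers (6 genes; summed log2 levels 3.44 to 4.12, 3.38 to 4.33 and 2.40 to 5.26, with 4 to 6, 2 to 6 and 2 to 6 detected) and neural markers (4 genes; 3.68 to 3.74, 3.11 to 4.24 and 3.16 to 4.18, with 4, 3 to 4 and 4 detected) overlapped between the media. The part of these other cell types in the region results was not tested, and in bulk RNA fewer cells of a type and less RNA per cell cannot be told apart.

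Region probes were detected on fewer arrays than gene probes. After 13 region probes with outlier spots were left out, 9136 of 16181 region probes (56.5%) were well above background on at least 3 arrays, which was the condition for testing, against 21296 of 27642 named gene probes (77.0%). On all 11 arrays 3669 region probes (22.7%) and 14431 gene probes (52.2%) were detected, and 4087 region probes (25.3%) and 3790 gene probes (13.7%) were detected on none. At least 1 probe was tested in 2889 regions, 1681 regions had a probe detected on every array, and no probe of the other 654 regions was tested. No region probe was saturated on any array.

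The share of region probes well above background was 42.3%, 45.2% and 60.5% in serum/LIF replicates 1 to 3 (mean 49.3% ± 9.77, SD, n = 3). In 2i/LIF it was 47.2%, 39.2%, 48.0%, 42.9% and 65.0% (48.4% ± 9.89, n = 5), and in KOSR/LIF 45.5%, 44.4% and 28.7% (39.5% ± 9.40, n = 3). The 2 highest values belong to arrays of the third scan day, whose other array, 2i/LIF replicate 1, had 47.2%, and the lowest to KOSR/LIF replicate 3. Within the first scan day the 6 arrays of the 3 media lay between 42.3% and 48.0%. The means differed by -0.881 percentage points between 2i/LIF and serum/LIF (exact permutation test, two-sided, p = 1), by -9.79 points between KOSR/LIF and serum/LIF (exact p = 0.5) and by 8.90 points between 2i/LIF and KOSR/LIF (exact p = 0.286). None of these differences passed the exact test, and that between KOSR/LIF and serum/LIF was about as large as the SD within either medium. A comparison of 3 arrays against 3 cannot give a p below 0.1. Gene probes had means of 73.0% ± 6.37, 70.9% ± 5.47 and 66.1% ± 9.18 in the same order of media.

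A few region probes were detected on every array of 1 medium and on no array of the others. There were 9 such probes for serum/LIF, 4 for 2i/LIF and 1 for KOSR/LIF among 16181, beside 55, 18 and 3 of 27642 gene probes. The serum/LIF probes include 1 from the R strand of chr4:124127144-124334840 and 1 from the R strand of chr13:28947034-28949166. The 2i/LIF probes lie in chr14:43929100-43945100 (F), chr1:88396166-88396660 (R), chr13:104591573-104599048 (R) and chr5:111538420-111540142 (F), and the KOSR/LIF probe in chr13:98038568-98068079 (F). The larger changes among these regions are described under each comparison below.

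Between 2i/LIF and serum/LIF, 203 region probes were higher and 207 lower in 2i/LIF at an adjusted p below 0.05 (limma, Benjamini-Hochberg over all 37484 probes tested), which is 4.49% of those tested. Over all probes 9.67% were called, 4.09% higher and 5.58% lower, and among named gene probes 13.4%. The called probes lay in 220 regions, 118 with a higher probe, 104 with a lower probe and 2 with both, and 391 of the 410 probes changed at least 2-fold. The median log2 change was 0.16 over region probes and 0.08 over all probes. Among 516 tested probes of genes that RefSeq annotates as long noncoding RNA, 37 were higher and 19 lower (10.9%). Between chromosomes the called share of region probes ran from 0.431% on chromosome 12 (2 of 464) to 8.20% on chromosome 10 (31 of 378), with a median of 4.56%. In 4 groups by region width it was 4.37%, 5.45%, 3.81% and 4.52% from narrow to wide.

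Shares of calls were also set side by side at matched levels. In 4 equal groups by mean level, from dim to bright, 4.02%, 4.21%, 6.36% and 4.23% of region probes were called between 2i/LIF and serum/LIF, against 15.7%, 18.8%, 15.9% and 6.75% of gene probes. Among probes detected on all 11 arrays the region and gene shares were 4.06% and 10.6% in this comparison. They were 1.01% and 1.78% between KOSR/LIF and serum/LIF, and 2.15% and 8.05% between 2i/LIF and KOSR/LIF. These are descriptions of shares and were not tested.

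The count for 2i/LIF against serum/LIF was 106 (30 higher, 76 lower) with normexp background correction. It was 554 (301 higher, 253 lower) with scan day as a block, 340 (187 and 153) within the first scan day and 112 (67 and 45) within the third, and 205, 224 and 273 without serum/LIF replicate 1, 2 or 3.

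The rule for naming a probe asked that the 2 media compared be fully separated at it, so their separation below is part of the choice and is no result. The place of the other medium was not used. The region probe with the largest rise in 2i/LIF lies on the F strand of chr11:96112907-96125798, a region of 12892 bp. Its levels were -3.63, -4.14 and -4.32 in serum/LIF, -0.01, 0.87, -0.26, -0.35 and 0.44 in 2i/LIF and -1.39, -0.05 and -1.86 in KOSR/LIF. All 5 samples in 2i/LIF lay above all 3 in serum/LIF, while KOSR/LIF replicate 2 fell within the 2i/LIF range. The log2 change was 4.17 ± 0.42 (SE; adjusted p = 0.000117), or 17.9-fold. Of the 3 F probes of this region, all tested, 2 were called higher, and their changes ran from 0.43 to 4.17.

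On the F strand of chr16:92180800-92196850 the single probe read -4.83, -5.83 and -5.28 in serum/LIF, -2.04, -1.65, -1.32, -0.98 and -1.26 in 2i/LIF and -3.84, -3.66 and -1.90 in KOSR/LIF. The 2i/LIF samples were above every serum/LIF sample, and KOSR/LIF replicate 3 reached the lowest of them. The log2 change between 2i/LIF and serum/LIF was 3.87 ± 0.44 (adjusted p = 0.000247), with 1 of the 3 serum/LIF arrays well above background.

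On the R strand of chr14:62280837-62283960 the levels were -3.58, -5.06 and -7.68 in serum/LIF, -1.67, -2.46, -1.62, -0.15 and -2.26 in 2i/LIF and -4.79, -4.88 and -4.03 in KOSR/LIF. The probe was well above background on all 5 arrays of 2i/LIF, on 1 of serum/LIF and on none of KOSR/LIF. It rose by 3.81 ± 0.78 on the log2 scale against serum/LIF (adjusted p = 0.00891), or by 3.47 with dim signals raised. Without the 2i/LIF arrays it would not have met the condition for testing, so this call is a description. All 3 probes of this strand were called higher (2.70 to 3.81).

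The F probe of chr14:43929100-43945100 is 1 of the 4 detected in 2i/LIF alone. It read -6.33, -5.79 and -6.24 in serum/LIF, -2.26, -2.85, -3.16, -2.55 and -2.75 in 2i/LIF and -5.01, -4.98 and -4.23 in KOSR/LIF, so that 2i/LIF stood apart from both other media. Where no array of the dim medium detected a probe, only a bound can be given, in which each dim array is set to the faintest signal of any detected probe, or to the probe's own signal where that is brighter. The probe was at least 7.87-fold higher in 2i/LIF than in serum/LIF and at least 3.66-fold higher than in KOSR/LIF. It met the condition for testing through the 2i/LIF arrays alone, so these folds are given as a description, with no p.

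The fifth region, chr4:99236190-99239702 (F), read -6.41, -4.98 and -4.12 in serum/LIF, -2.19, -2.49, -0.75, -2.25 and -1.34 in 2i/LIF and -2.23, -3.28 and -4.38 in KOSR/LIF. The 3 serum/LIF samples spread over more than the gap to 2i/LIF, but no sample overlapped. It was well above background on 1 array of serum/LIF, all 5 of 2i/LIF and 2 of KOSR/LIF. The change was 3.37 ± 0.61 (adjusted p = 0.00415), or 2.91 with dim signals raised, and within the third scan day it was 2.35 (adjusted p = 0.079). Both probes of the strand were called higher.

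The region with the largest fall in 2i/LIF is chr4:124127144-124334840, on its R strand. The probe read -0.77, -0.88 and -1.75 in serum/LIF, -6.81, -5.58, -6.52, -6.41 and -5.77 in 2i/LIF and -3.27, -4.18 and -2.56 in KOSR/LIF. The 3 media did not overlap, and KOSR/LIF lay between the others. It was well above background on 1 of the 5 arrays of 2i/LIF, 2 of KOSR/LIF and all 3 of serum/LIF. The log2 change was -5.08 ± 0.42 between 2i/LIF and serum/LIF (adjusted p = 3.21e-05) and -2.88 between 2i/LIF and KOSR/LIF (adjusted p = 0.00161). With each dim signal raised to the faintest detected one these changes were -4.40 and -2.20. All 5 R probes were called lower under 2i/LIF than serum/LIF. Of these, 1 was detected in serum/LIF alone. It met the condition for testing through those arrays, so its call is a description.

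On the R strand of chr13:28947034-28949166 the levels were -0.53, -0.54 and -3.61 in serum/LIF, -6.95, -6.05, -6.27, -5.38 and -8.33 in 2i/LIF and -1.19, -2.86 and -2.88 in KOSR/LIF. Serum/LIF replicate 3 lay below the other serum/LIF samples and below KOSR/LIF, but above every 2i/LIF sample. The probe was at least 17.5-fold lower under 2i/LIF than serum/LIF (adjusted p = 0.00203) and at least 10.4-fold lower than in KOSR/LIF (adjusted p = 0.00736). It was detected on 3 serum/LIF and 2 KOSR/LIF arrays. Without the serum/LIF arrays it would not have met the condition for testing, so its call against serum/LIF is a description.

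That region lies inside a wider one, chr13:28551902-28975446 (R, 423545 bp), whose named probe read -1.84, -2.66 and -3.26 in serum/LIF, -6.91, -5.92, -6.78, -6.40 and -8.28 in 2i/LIF and -2.94, -3.95 and -4.38 in KOSR/LIF. It too was not well above background on any 2i/LIF array and was at least 8.6-fold lower there than in serum/LIF (adjusted p = 0.000399). This probe also would not have met the condition for testing without the serum/LIF arrays, so that call is a description. All 3 R probes of each of these regions were called lower, but the regions overlap and are not independent of each other. In chr13:28947034-28949166, 1 of the 3 was detected in serum/LIF alone. It met the condition for testing through those arrays, so its call is a description.

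On the F strand of chr1:138592780-138622719 the probe read -1.57, -1.70 and -1.96 in serum/LIF, -5.29, -5.67, -6.69, -6.20 and -8.05 in 2i/LIF and -2.45, -2.73 and -3.25 in KOSR/LIF. The serum/LIF samples lay close together and apart from the others, and the probe was at least 13.6-fold lower in 2i/LIF (adjusted p = 0.000215). Without the serum/LIF arrays it would not have met the condition for testing, so this call is a description. Within the third scan day the log2 change was -4.71 (adjusted p = 0.0976).

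The R probe of chr15:32167516-32174417 read -1.64, -2.02 and -1.45 in serum/LIF, -6.26, -5.72, -4.99, -5.03 and -8.05 in 2i/LIF and -3.13, -3.22 and -3.52 in KOSR/LIF. The media did not overlap, and the probe was at least 14.3-fold lower under 2i/LIF than serum/LIF (adjusted p = 0.000739). Without the serum/LIF arrays it would not have met the condition for testing, so this call is a description. The 3 tested R probes of this region were all called lower, from -4.30 to -1.52, while its tested F probe changed by -0.08 and was not called.

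Apart from chr14:43929100-43945100, the other 9 changes each stayed below the 0.05 threshold when any 1 array was left out and with scan day as a block. Among them, the calls of chr14:62280837-62283960, chr13:28947034-28949166, chr13:28551902-28975446, chr1:138592780-138622719 and chr15:32167516-32174417 are descriptions, as given above. With normexp correction, which adds an offset of 50 units to each signal and so by construction draws dim levels together, all 10 changes were smaller and 3 of the 9 were called. Those called were chr11:96112907-96125798 (2.25), chr4:124127144-124334840 (-1.54) and chr15:32167516-32174417 (-1.22). The call was lost for chr16:92180800-92196850 (1.23, adjusted p = 0.063), chr14:62280837-62283960 (1.25, 0.119), chr4:99236190-99239702 (1.05, 0.0694), chr13:28947034-28949166 (-1.43, 0.117), chr1:138592780-138622719 (-1.17, 0.0592) and chr13:28551902-28975446 (-1.01, 0.213). For chr14:43929100-43945100 the normexp change was 0.66 (adjusted p = 0.514). The folds given above therefore hold for the processed signal and not for this correction.

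Between KOSR/LIF and serum/LIF, 54 region probes were higher and 36 lower in KOSR/LIF (limma, adjusted p below 0.05), or 0.985% of those tested against 1.94% of all probes (1.06% higher, 0.88% lower) and 2.57% of named gene probes. The calls lay in 60 regions, 40 higher and 20 lower, and all 90 probes changed at least 2-fold. Among the annotated long noncoding RNA gene probes 10 were higher and 6 lower (3.10%). By chromosome the called share of region probes reached at most 3.48%, with a median of 0.976%. The median log2 change of region probes was 0.32, beside 0.06 over all probes and -0.05 over named genes.

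The split between higher and lower depended on the scaling. With each array scaled to its median, 27 region probes were higher and 44 lower, the median over region probes was -0.06, and the median over all probes moved from 0.06 to -0.31. Quantile normalization gave 31 and 36, normexp 8 and 16. The count fell to 8, 15 and 29 without serum/LIF replicate 1, 2 or 3 and to 33, 36 and 48 without KOSR/LIF replicate 1, 2 or 3, and it was 134 with scan day as a block (73 and 61), 45 within the first scan day (23 and 22) and 19 when only these 2 media were fitted.

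The largest rise in KOSR/LIF was on the R strand of chr15:3230734-3251196. Its levels were -6.30, -6.35 and -4.93 in serum/LIF, -5.30, -4.14, -4.49, -6.20 and -4.20 in 2i/LIF and -1.13, -1.61 and -0.61 in KOSR/LIF. The KOSR/LIF samples stood above all 8 others, which overlapped with each other. The probe was well above background on all 3 arrays of KOSR/LIF but on 1 of serum/LIF and 1 of 2i/LIF. The log2 change against serum/LIF was 4.75 ± 0.57 (adjusted p = 0.00641), or 4.20 with dim signals raised, and it stayed called when any 1 array was left out. Against KOSR/LIF, 2i/LIF was lower by -3.75 ± 0.51 (adjusted p = 0.00118). Without the KOSR/LIF arrays the probe would not have met the condition for testing, so its calls are descriptions. Of the 3 R probes, 2 were called higher in KOSR/LIF than in serum/LIF.

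On the F strand of chr9:4260788-4261404 the levels were -4.86, -3.94 and -3.09 in serum/LIF, -3.85, -1.09, -2.91, -4.79 and -4.42 in 2i/LIF and 0.69, -0.44 and -0.11 in KOSR/LIF. KOSR/LIF again stood apart, and both probes of the strand were called higher. The change against serum/LIF was 4.01 ± 0.83 (adjusted p = 0.0358). The call was lost without any 1 of the 6 serum/LIF and KOSR/LIF arrays (adjusted p 0.0611 to 0.144), with scan day as a block (3.52, adjusted p = 0.0656) and within the first scan day (4.53, adjusted p = 0.0669).

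On the F strand of chr3:34793853-34800591 the probe read -6.36, -5.28 and -6.72 in serum/LIF, -3.90, -2.92, -3.44, -5.33 and -2.51 in 2i/LIF and -3.25, -3.06 and -0.82 in KOSR/LIF. It was not well above background on any serum/LIF array and reached its highest level in KOSR/LIF replicate 3. Of the 3 tested F probes of this region 1 was called higher in KOSR/LIF than in serum/LIF, and the changes ran from 0.46 to 3.74. The named probe was at least 9.73-fold higher in KOSR/LIF than in serum/LIF. The adjusted p was 0.0361 with the measured signals but 0.0537 with the raised signals of that bound, 0.0577 in the authors' value table (a change of 2.06) and 0.0902 with slide as a block (2.90). The adjusted p lay between 0.0514 and 0.134 without any 1 of the serum/LIF or KOSR/LIF arrays or of 2i/LIF replicates 1 and 3, and within the first scan day the change was 2.66 (adjusted p = 0.147).

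The F probe of chr11:96112907-96125798, the largest rise in 2i/LIF, also rose in KOSR/LIF against serum/LIF, by 2.93 ± 0.47 (adjusted p = 0.0138). Leaving out serum/LIF replicate 1, 2 or 3 raised the adjusted p to 0.0517, 0.0584 or 0.0505, and the call was also lost within the first scan day (3.16, adjusted p = 0.0571). The difference between 2i/LIF and KOSR/LIF was 1.24 (adjusted p = 0.114), so these media were not separated at this probe.

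The F probe of chrX:98989930-98994344 read -0.40, -0.59 and -0.20 in serum/LIF, 1.05, 1.53, 1.41, 0.33 and 1.35 in 2i/LIF and 2.77, 2.80 and 1.46 in KOSR/LIF. The serum/LIF samples were lowest, and KOSR/LIF replicate 3 fell within the 2i/LIF range. The rise in KOSR/LIF was 2.74 ± 0.41 (adjusted p = 0.0117), lost without serum/LIF replicate 1 (0.0551) or 2 (0.0505). Both probes of the strand were called higher in KOSR/LIF.

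Among the regions that fell, the R strand of chr19:5834117-5835940 read 0.80, 0.94 and -0.81 in serum/LIF, 0.09, 0.11, -0.96, -1.29 and -0.29 in 2i/LIF and -2.45, -2.57 and -4.28 in KOSR/LIF. The KOSR/LIF samples lay below all 8 others, and serum/LIF and 2i/LIF overlapped. The fall against serum/LIF was -3.41 ± 0.61 (adjusted p = 0.02), lost without serum/LIF replicate 1 (0.0928) or 2 (0.0862) and with slide as a block (-2.90, adjusted p = 0.0843). Against KOSR/LIF, 2i/LIF was higher by 2.63 ± 0.54 (adjusted p = 0.0122). That change was 1.39 within the first scan day, and the call was lost with slide as a block (1.87, adjusted p = 0.157) and without 2i/LIF replicates 1 and 5 together (2.39, adjusted p = 0.0693). On KOSR/LIF 2 of the 3 arrays were well above background. All 3 probes of the strand were called in both comparisons.

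A like pattern was seen on the F strand of chr10:96098058-96098623, with levels of -0.14, 0.27 and -0.94 in serum/LIF, -0.45, -0.31, -1.17, -0.22 and -0.82 in 2i/LIF and -3.05, -2.93 and -4.33 in KOSR/LIF. Serum/LIF and 2i/LIF overlapped and KOSR/LIF lay below both. The log2 change was -3.17 ± 0.44 between KOSR/LIF and serum/LIF (adjusted p = 0.00923; 0.051 without serum/LIF replicate 1) and 2.84 ± 0.39 between 2i/LIF and KOSR/LIF (adjusted p = 0.00124). Of the 3 probes of this strand 2 were called lower in KOSR/LIF than in serum/LIF, and the third changed by 0.43.

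The R probe of chr8:87513394-87514107 read -1.61, -2.22 and -2.85 in serum/LIF, -4.33, -3.59, -4.15, -3.74 and -5.24 in 2i/LIF and -4.67, -6.63 and -4.25 in KOSR/LIF. Serum/LIF stood above both other media, which overlapped. The probe was at least 5.19-fold lower in KOSR/LIF than in serum/LIF (adjusted p = 0.0363). That p was 0.0523 to 0.147 without any 1 of the serum/LIF replicates, 2i/LIF replicates 1 and 3 or KOSR/LIF replicates 1 and 2. Within the first scan day it was 0.0787. Of the 3 tested R probes 1 was called lower in KOSR/LIF than in serum/LIF, and the changes ran from -2.96 to -1.30.

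On the R strand of chr4:124127144-124334840, another probe than the one given above was lower in KOSR/LIF than in serum/LIF by -2.26 ± 0.43 (adjusted p = 0.0267). The call was lost without serum/LIF replicate 1 (0.12) or 2 (0.111) or KOSR/LIF replicate 1 (0.0604), 2 (0.0661) or 3 (0.0683). Without the serum/LIF arrays the named probe would not have met the condition for testing, so its call is a description. Of the 5 R probes 3 were called lower in this comparison.

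On the F strand of chr7:6210340-6229115 the named probe read -1.76, -2.47 and -1.76 in serum/LIF, -0.21, -1.29, -0.87, 0.10 and -0.50 in 2i/LIF and -4.05, -4.27 and -4.45 in KOSR/LIF. The 3 media did not overlap, with 2i/LIF highest and KOSR/LIF lowest. The change was -2.26 ± 0.37 between KOSR/LIF and serum/LIF (adjusted p = 0.0148; lost without serum/LIF replicate 1 at 0.0781 or 3 at 0.0549, without KOSR/LIF replicate 2 at 0.051 and within the first scan day, -2.04 with adjusted p = 0.0985). Between 2i/LIF and KOSR/LIF it was 3.70 ± 0.33 (adjusted p = 0.000128), the largest rise in that comparison. The 5 tested F probes of this region did not move together: 1 was called lower in KOSR/LIF than in serum/LIF, and their changes ran from -2.26 to 1.82.

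Of the 10 changes named for KOSR/LIF against serum/LIF, 1 stayed called when any 1 array was left out, that of chr15:3230734-3251196. Its call and that of chr4:124127144-124334840 are descriptions, as given above. With scan day as a block 9 of the 10 were called, within the first scan day 5, and with normexp correction 2, those of chr9:4260788-4261404 (2.06) and chrX:98989930-98994344 (2.34). The other normexp changes were 1.52 for chr15:3230734-3251196 (adjusted p = 0.0738), 1.14 for chr3:34793853-34800591 (0.337), 1.60 for chr11:96112907-96125798 (0.0605), -1.62 for chr19:5834117-5835940 (0.0637), -1.26 for chr10:96098058-96098623 (0.095), -0.33 for chr8:87513394-87514107 (0.637), -0.51 for chr4:124127144-124334840 (0.535) and -0.32 for chr7:6210340-6229115 (0.58).

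Between 2i/LIF and KOSR/LIF, 111 region probes were higher and 155 lower in 2i/LIF (limma, adjusted p below 0.05), or 2.91% of those tested against 7.45% of all probes (2.97% higher, 4.48% lower) and 10.5% of named gene probes. The calls lay in 168 regions, 75 higher and 93 lower, and 257 of the 266 probes changed at least 2-fold. Of the annotated long noncoding RNA gene probes 15 were higher and 20 lower (6.78%). By chromosome the called share of region probes ran from 1.08% to 5.82%. This comparison and those above share arrays, so their values are set side by side only.

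More probes were lower than higher here, and that split turned with the scaling: 143 were higher and 83 lower with median scaling, 172 and 100 with quantile normalization, and 207 and 154 in the authors' value table. Normexp gave 14 higher and 43 lower and so kept the majority of lower calls. The median log2 change of region probes was -0.18 and became 0.11 with median scaling, when the median over all probes moved from -0.02 to 0.27. The count was 396 with scan day as a block (215 higher, 181 lower), 226 within the first scan day (135 and 91) and 167 without KOSR/LIF replicate 1.

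On the R strand of chr1:134171292-134176062 the levels were -3.71, -4.00 and -3.63 in serum/LIF, -1.49, -0.23, -0.65, -0.93 and -0.20 in 2i/LIF and -3.79, -3.51 and -3.20 in KOSR/LIF. Serum/LIF and KOSR/LIF overlapped and 2i/LIF lay above both. The probe was higher in 2i/LIF by 2.80 ± 0.32 against KOSR/LIF (adjusted p = 0.000409) and by 3.08 against serum/LIF (adjusted p = 0.000127). Both tested probes of the strand were called higher in each of these comparisons.

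The regions lower in 2i/LIF than in KOSR/LIF include chr2:94082835-94101939 on its R strand, with levels of -3.78, -3.18 and -5.84 in serum/LIF, -6.88, -5.89, -6.67, -5.67 and -7.19 in 2i/LIF and -3.11, -2.67 and -1.74 in KOSR/LIF. KOSR/LIF was highest, and serum/LIF replicate 3 reached the 2i/LIF range. The probe was at least 9.1-fold lower in 2i/LIF than in KOSR/LIF (adjusted p = 0.00181). Without the KOSR/LIF arrays it would not have met the condition for testing, so this call is a description. Of the 4 tested R probes 2 were called lower in this comparison, and the 4 changes ran from -3.96 to -0.39.

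On the R strand of chr5:123440192-123451767 the probe read -2.88, -3.14 and -3.73 in serum/LIF, -6.29, -5.69, -6.41, -6.24 and -5.47 in 2i/LIF and -2.58, -2.86 and -1.46 in KOSR/LIF. The 2i/LIF samples lay below all others, by -3.72 ± 0.37 against KOSR/LIF (adjusted p = 0.000196) and by -2.77 against serum/LIF (adjusted p = 0.000658). Serum/LIF replicate 1 lay just under the lowest KOSR/LIF sample. Of the 5 arrays in 2i/LIF 1 was well above background, and with dim signals raised the changes were -3.18 and -2.23. Of the 2 tested R probes 1 was called lower in each of these comparisons. Their changes ran from -3.72 to -0.90 against KOSR/LIF and from -2.77 to -0.49 against serum/LIF.

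The F probe of chr13:98038568-98068079 was detected in KOSR/LIF alone. It read -5.36, -6.86 and -8.23 in serum/LIF, -7.10, -4.26, -6.21, -6.56 and -8.42 in 2i/LIF and -3.61, -3.36 and -2.05 in KOSR/LIF. Every KOSR/LIF sample was above every other sample, and the dim samples spread over about 4 log2 units. It was at least 5.83-fold lower in 2i/LIF than in KOSR/LIF. It met the condition for testing through the KOSR/LIF arrays alone, and the other 9 F probes of the region did not meet it, so this fold is a description.

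A second F probe of chr1:138592780-138622719 was lower in 2i/LIF than in KOSR/LIF by -3.81 ± 0.48 (adjusted p = 0.00073). The R strand of chr14:62280837-62283960 was at least 7.2-fold higher in 2i/LIF than in KOSR/LIF (adjusted p = 0.0432), with adjusted p of 0.0595 to 0.123 without any 1 of serum/LIF replicate 2, 2i/LIF replicates 1, 3, 4 and 5 or the KOSR/LIF replicates. Of the 9 named changes other than that of chr13:98038568-98068079, 8 stayed called when any 1 array was left out, 9 with scan day as a block and 4 with normexp correction. Normexp ended the calls of chr14:62280837-62283960 (0.65), chr1:134171292-134176062 (0.90), chr19:5834117-5835940 (0.99), chr2:94082835-94101939 (-1.07) and chr5:123440192-123451767 (-1.06), with adjusted p of 0.139 to 0.475.

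Probes of a region were then compared with each other within and between strands. Over 11588 pairs of tested probes on the same strand, the log2 changes correlated with r = 0.65 between 2i/LIF and serum/LIF, 0.52 between KOSR/LIF and serum/LIF and 0.51 between 2i/LIF and KOSR/LIF. In that order of comparisons, r was 0.21, -0.01 and 0.07 over 9443 pairs on opposite strands. These correlations are across probe pairs of shared arrays and give no p. Where at least 1 probe of a same-strand pair was called, both were called the same way in 303 of 887 pairs (34.2%), 51 of 186 (27.4%) and 133 of 509 (26.1%), and in no pair were they called opposite ways. On opposite strands the counts were 32 of 672 (4.76%), 0 of 119 and 22 of 383 (5.74%), and 7, 0 and 0 pairs were called opposite ways. Of the 2406 region strands with at least 2 tested probes, 202, 52 and 150 had a called probe, and in 108, 19 and 57 at least 2 probes were called the same way.

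Both strands of many regions gave signal. Of the 1067 regions with probes on both strands, 601 (56.3%) had a detected probe on each strand in serum/LIF, 510 (47.8%) in 2i/LIF and 411 (38.5%) in KOSR/LIF, where a strand counts if a probe was well above background on every array of the medium. One strand alone was detected in 176 regions for F and 185 for R in serum/LIF, 197 and 203 in 2i/LIF and 212 and 210 in KOSR/LIF. The media hold different numbers of arrays, and the order of the media was not tested.

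Whether the strands of a region changed unequally was tested in the 842 regions with a tested probe on each strand, on the difference F minus R within each array. Between 2i/LIF and serum/LIF 5 regions passed (limma, adjusted p below 0.05 over the pairs; 0.594%), between KOSR/LIF and serum/LIF 0 (0.0%), and between 2i/LIF and KOSR/LIF 1 (0.119%). At an unadjusted p below 0.05 there were 64, 84 and 84, and the smallest adjusted p for KOSR/LIF against serum/LIF was 0.0843. The median SE of such a difference was 0.495, 0.554 and 0.495 on the log2 scale, and the smallest difference that passed was 2.06.

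The largest unequal change was that of chr4:124127144-124334840. The mean level of its 4 tested F probes was -3.23, -2.94 and -3.04 in serum/LIF, -2.96, -2.44, -2.84, -2.77 and -2.43 in 2i/LIF and -2.96, -2.90 and -1.41 in KOSR/LIF. The mean of its 5 R probes was -1.36, -1.13 and -2.48 in serum/LIF, -5.85, -5.55, -5.77, -5.59 and -5.70 in 2i/LIF and -3.62, -4.01 and -3.71 in KOSR/LIF. The F strand stayed within about 1 log2 unit on 10 of the arrays, while the R strand separated the 3 media. The change between 2i/LIF and serum/LIF was 0.38 on F and -4.04 on R, a difference of 4.42 ± 0.44 (adjusted p = 0.000237). The difference passed in all 26 settings tried, at 1.40 with normexp. Of the 5 R probes, 1 met the condition for testing through the serum/LIF arrays alone. Another, named for KOSR/LIF against serum/LIF, would not have met it without those arrays. The difference without these probes was not tested. Between KOSR/LIF and serum/LIF the difference was 2.77 (adjusted p = 0.0843).

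In chr14:43929100-43945100 the unequal change came from the F strand, whose levels are given above. The mean of its 2 tested R probes was -1.84, -1.90 and -2.46 in serum/LIF, -2.52, -1.49, -1.56, -1.62 and -2.06 in 2i/LIF and -2.21, -2.14 and -1.03 in KOSR/LIF, with all media overlapping. The F change was at least 2.98 on the log2 scale, since no serum/LIF array detected the F probe, and the R change was 0.22. With dim signals raised to the faintest detected signal the difference was 2.76. This pair counts among the 5, but its F side was tested only through its detection in 2i/LIF, so its values are a description. Within the first scan day its adjusted p was 0.0537, and with normexp the difference was 0.57 (adjusted p = 0.289).

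In chr15:32167516-32174427, an entry that ends 10 bp beyond the region named above and overlaps it, the 5 R probes were all called lower in 2i/LIF and the 1 F probe was not called. The mean R level was -2.21, -2.40 and -2.03 in serum/LIF, -5.67, -4.85, -4.75, -4.74 and -5.98 in 2i/LIF and -3.46, -3.56 and -3.43 in KOSR/LIF, and the F levels of the media overlapped (-3.69 to -1.81). The difference was 3.11 ± 0.61 (adjusted p = 0.0413; 2.81 with dim signals raised, adjusted p = 0.0524). It was lost without serum/LIF replicate 1 (0.0972), 2 (0.26) or 3 (0.144), 2i/LIF replicate 1 (0.106), 3 (0.0694) or 4 (0.0708) or KOSR/LIF replicate 1 (0.0624), and within the first scan day (2.59, adjusted p = 0.134).

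In chr13:98221098-98480773 the difference between the strands passed, while the F probe was not called and 1 of the 4 R probes was called lower. The F probe read -3.64, -2.87 and -4.76 in serum/LIF and -2.89, -1.24, -1.76, -2.10 and -2.16 in 2i/LIF, and the mean of 4 R probes -3.30, -3.0 and -3.69 in serum/LIF and -4.52, -3.91, -3.65, -4.35 and -5.02 in 2i/LIF. On each strand alone these media overlapped, with changes of 1.73 on F and -0.96 on R. The difference was 2.69 ± 0.42 (adjusted p = 0.0088), lost without serum/LIF replicate 1 (0.0603) or 3 (0.0925) and within the first scan day (2.17, adjusted p = 0.1).

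The fifth region, chr11:96111499-96126224, spans the F region with the largest rise in 2i/LIF and lies outside the naming rule. It is 1 of the 2 regions with a called probe in each direction. Of its 4 tested F probes 2 were higher in 2i/LIF than in serum/LIF (0.25 to 2.33) and of its 2 R probes 1 was lower (-1.91 to 0.37), a difference of 2.06 ± 0.37 (adjusted p = 0.0232). The other such region, chr14:22267795-22319045, had 5 of 8 F probes lower and 1 of 9 R probes higher (2.34), and did not pass the test of unequal change.

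The 1 unequal change between 2i/LIF and KOSR/LIF was in chr2:94082835-94101939, where the log2 change was 0.29 on F and -2.35 on R (difference 2.64 ± 0.43, adjusted p = 0.0442; 2.09 with dim signals raised, adjusted p = 0.187). The mean of the 4 R probes was -4.70, -4.02, -4.82, -4.60 and -5.03 in 2i/LIF and -2.86, -2.64 and -1.35 in KOSR/LIF, with no overlap. The call held in 8 of 25 settings: it was lost with scan day as a block (2.30, adjusted p = 0.0527), within the first scan day (2.01, adjusted p = 0.173) and without serum/LIF replicate 1 (0.105), 2i/LIF replicate 1 (0.155), 2 (0.0634), 3 (0.107) or 5 (0.155) or any KOSR/LIF replicate (0.073 to 0.247).

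Some calls came in runs of neighbouring region probes that all moved the same way, here at least 4 tested probes from at least 2 regions, each within 100 kb of the next. Entries within a run can overlap and share sequence, so these are not independent loci. For 2i/LIF against serum/LIF only the runs with the most probes are given, and shorter ones can have been left out. The longest was on the F strand of chr17:26911032-26917047, where 12 probes from 2 regions were all lower under 2i/LIF than serum/LIF. Their median level was 1.55, 2.17 and 1.23 in serum/LIF, -0.75, -0.20, -0.09, -0.44 and -0.90 in 2i/LIF and 0.38, 0.06 and -0.52 in KOSR/LIF. Serum/LIF stood above both other media. The changes ran from -2.22 to -1.27 with a median of -2.12 in 2i/LIF, and between KOSR/LIF and serum/LIF the median was -1.63 with 7 of the 12 called.

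On chr4:11893711-11931875 (F) 8 probes from 2 regions were lower under 2i/LIF than serum/LIF (median -2.25), and the same 8 were lower than in KOSR/LIF (median -2.26). Their median level was -2.55, -2.77 and -3.03 in serum/LIF, -4.81, -4.72, -4.56, -5.0 and -5.82 in 2i/LIF and -2.49, -2.36 and -2.90 in KOSR/LIF. Serum/LIF and KOSR/LIF overlapped, with a median change of 0.18 between them and no call.

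On chrX:135880775-135892277 (R) 7 probes from 2 regions were lower under 2i/LIF than serum/LIF, by a median of -1.91. Their median level was 1.53, 1.13 and 0.76 in serum/LIF, -0.44, -1.69, -0.26, -0.39 and -0.74 in 2i/LIF and 0.18, -1.60 and -0.59 in KOSR/LIF. The 3 KOSR/LIF samples spread over the 2i/LIF range and above it, and none of the 7 was called between KOSR/LIF and serum/LIF, where the median was -1.77. On chr7:67111261-67120697 (R) 6 probes from 3 regions were lower in 2i/LIF (median -2.34), and 4 of them in KOSR/LIF (median -1.82).

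Among the 5 runs kept for 2i/LIF against serum/LIF, the run that rose was on chr10:6480075-6603900 (R). There 5 probes from 2 regions were higher in 2i/LIF than in serum/LIF by a median of 2.71. Their median level was -5.32, -6.55 and -7.44 in serum/LIF, -3.80, -2.96, -2.27, -3.33 and -3.94 in 2i/LIF and -6.45, -4.84 and -4.37 in KOSR/LIF. No 2i/LIF sample overlapped with either other medium. In serum/LIF these medians lay below the faintest detected signal of each array (-5.05, -5.96 and -6.64). In KOSR/LIF replicates 1 and 3 they did so too (-5.19 and -3.76). The rise is therefore set against signals near background, and its size is uncertain.

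Between 2i/LIF and KOSR/LIF 3 further runs were found. On chr1:138570107-138632310 3 F and 2 R probes from 3 regions were lower in 2i/LIF (median -3.48), among them both named F probes of chr1:138592780-138622719. On chr5:123439974-123451767 (F) 4 probes from 2 regions were lower (median -2.70; 3 of the 4 also against serum/LIF). On chr5:111538420-111566257 (F) 4 probes from 2 regions were higher (median 2.28, and all 4 also against serum/LIF, median 2.31). Of these 4, 1 was detected in 2i/LIF alone and met the condition for testing through those arrays. The rule asks for at least 4 probes, so this run depends on that probe and is a description. No run passed the rule between KOSR/LIF and serum/LIF.

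To place the regions beside genes without positions, each named region probe was set against every tested gene probe that RefSeq (GRCm38.p6) places on the same chromosome. Likeness is the root mean square difference of the centred log2 profiles over the 11 arrays, where a smaller value is more alike. This measure was chosen after values were seen, it is a description over shared arrays, and it says nothing of distance on the chromosome. A gene picked this way shares the changes of its region probe by the choice, so gene changes are given without p. The R probe of chr4:124127144-124334840 with the largest fall in 2i/LIF was most like Pou3f1, a POU-domain transcription factor, among 1455 gene probes (0.54 log2 units, beside a median of 2.29 over all of them), then Wnt4, a Wnt ligand (0.58). For the other named R probe of that region the order was Patj (0.74), Wnt4 (0.74) and Pou3f1 (0.81), so the nearest gene differed between probes of the strand. Pou3f1 itself was lower in 2i/LIF by -4.56 against serum/LIF and by -2.88 against KOSR/LIF.

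The F probe of chr7:6210340-6229115 was most like Epp13 among 1787 gene probes (0.25, median 1.62). Epp13 showed the same order of media, which is part of the choice. Its changes were 1.68 between 2i/LIF and serum/LIF, -1.91 between KOSR/LIF and serum/LIF and 3.59 between 2i/LIF and KOSR/LIF. The chr11:96112907-96125798 probe was most like Gm53 (0.38, median 1.86 over 1805 probes), which rose by 3.99 in 2i/LIF against serum/LIF. The first probe of the chrX:135880775-135892277 run was most like Platr21, a noncoding RNA gene (0.13, median 1.19 over 808 probes). The chrX:98989930-98994344 probe was most like Tex11, a meiosis gene (0.39, median 1.30), which rose by 2.72 in KOSR/LIF against serum/LIF.

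The nearest gene lay between 0.13 and 1.03 from the named probes and the first probes of the runs. For the runs it was Coro1a for chr7:67111261-67120697 (0.29), Trmt44 for chr5:111538420-111566257 (0.36) and Btbd9 for chr17:26911032-26917047 (0.37). The chr10:96098058-96098623 probe was most like Btg1, an antiproliferative gene (0.60, median 1.47), and the chr1:134171292-134176062 probe most like Gsta3, a glutathione transferase (0.55, median 1.56). The chr16:92180800-92196850 probe was most like Apod, apolipoprotein D (0.67, median 1.72). For chr15:3230734-3251196 it was Ccdc152 (0.72, median 2.10), for chr13:28947034-28949166 Arhgef28 (0.89, median 2.63) and for chr19:5834117-5835940 Ahnak (0.77) and then Malat1 (0.82, median 1.60).

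A list of long noncoding RNA genes known by name was read beside the regions. Of 32 listed genes, 18 had a probe and 15 a tested one (19 probes). None of these 19 was called between 2i/LIF and serum/LIF or between 2i/LIF and KOSR/LIF, where 9.67% and 7.45% of all probes were called, and 1 between KOSR/LIF and serum/LIF, where 1.94% were. The 19 are few beside the 516 probes of annotated long noncoding RNA genes, of which 10.9%, 6.78% and 3.10% were called in the same order. With limma, 5, 2 and 4 of the 19 probes had an unadjusted p below 0.05 between 2i/LIF and serum/LIF, KOSR/LIF and serum/LIF, and 2i/LIF and KOSR/LIF, and the median changes were -0.21, -0.27 and -0.03. The call was Malat1, an abundant nuclear RNA of splicing speckles, with levels of 3.11, 3.41 and 3.00 in serum/LIF, 2.44, 3.07, 1.42, 2.27 and 2.96 in 2i/LIF and 1.26, 1.54 and 0.66 in KOSR/LIF. KOSR/LIF lay below serum/LIF without overlap, by -2.02 ± 0.42 (adjusted p = 0.036), and overlapped with 2i/LIF. Leaving out serum/LIF replicate 1 (adjusted p = 0.121), 2 (0.131) or 3 (0.0902), KOSR/LIF replicate 1 (0.0876), 2 (0.0644) or 3 (0.0885) or 2i/LIF replicate 1 (0.0517) or 4 (0.0527) ended the call. It was also lost with scan day as a block (adjusted p = 0.0613), with slide as a block (0.0694), within the first scan day (0.0824) and in the authors' value table, where the change was -1.16 (adjusted p = 0.328).

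Neat1, which builds paraspeckles, was not called. Its levels were 3.94, 3.41 and 2.30 in serum/LIF, 3.72, 2.62, 3.91, 3.01 and 2.33 in 2i/LIF and 3.94, 2.86 and 3.13 in KOSR/LIF, and all media overlapped. Dleu2, the host of a microRNA cluster, read -1.84, -1.71 and -1.58 in serum/LIF and -0.45, -1.25, -0.76, -0.58 and -1.20 in 2i/LIF, a change of 0.86 that missed the threshold (adjusted p = 0.092). Mir17hg, the host of an oncogenic microRNA cluster, changed by -1.01 between 2i/LIF and serum/LIF (adjusted p = 0.139), with levels of 3.26, 3.07 and 2.14 in serum/LIF and 1.70, 0.98, 2.60, 1.64 and 2.16 in 2i/LIF, which overlapped.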

How the data were processed

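Each of the 11 samples was hybridised to 1 Agilent 1-colour (Cy3) array. The deposited intensities were read out with Feature Extraction 11.0.1.1, which subtracts background and detrends within the array, per the file headers, and the headers name genome build mm9. Values were log2 of the processed signal, averaged over spots of a probe, minus each array's 75th percentile. Control spots and probes with outlier flags were left out. Probes well above background on at least 3 arrays were fitted together with limma 3.58.1 in R 4.3.3 (lmFit and eBayes, all 11 arrays, no covariate, Benjamini-Hochberg over all probes, threshold 0.05, two-sided). Whole-table scripts were tested on simulated data. Precision is limited by the number of arrays. Per the labels the 11 samples come from 3 ES cell lines that recur in every medium and, in 2i/LIF, within it. The p-values reflect only how far these samples spread, which may be partly technical.

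Named regions come, in each comparison, from called probes whose arrays do not overlap and which were detected on every array of the brighter medium, 1 per region. Of these, the 5 with the largest and the 5 with the smallest change were taken. The 4 called strand pairs with the largest difference were also named. Runs of called probes were limited to the 5 with the most probes in each comparison. Probes on chromosome 18 are not named. The members and lists were chosen with earlier results of these data known. Alternatives were median and quantile scaling, normexp background correction (offset 50, on median spot and background intensities, as the authors' files hold no mean signal column), the authors' value table of linear intensities (normalization not given in the sources used here), filters, scan day, slide, cell line, replicate number and leaving out arrays. RefSeq (GRCm38.p6) gave gene names and chromosomes only.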

Additional observations from a re-analysis of the deposited data

How the results depend on the processing

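Of 35 named values, 0 reversed under any alternative and 27 lost their call under at least 1. Folds shrank by over 1.5 times for 34 of the 35 with normexp, 28 in the authors' value table, 8 within scan day 1 (3 grew), 6 with slide as a block (2 grew) and 6 with dim signals raised. The counts of called region probes moved by over 1.5 times as follows, for 2i/LIF against serum (410), KOSR/LIF against serum (90) and 2i/LIF against KOSR/LIF (266). Normexp background gave 106, 24 and 57, no filter on dim probes 259, 23 and 170, and only probes detected on all arrays 175, 58 and 89 (fewer probes tested). Slide as a block gave 648 in the first, scan day 3 alone 112 (fewer arrays), scan day 1 alone 45 in the second, a fit of only the 2 media 19 in the second, and leaving out 2i/LIF replicates 1 and 5 gave 154 in the third. Leaving out 1 array gave 205 to 546, 8 to 97 and 167 to 304.

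For strand pairs (5, 0 and 1) between 2i/LIF and serum, normexp gave 1, the deposited values 15, probes detected on all arrays 0, scan day as a block 15, slide 23, scan day 1 alone 1, scan day 3 alone 9, cell line from titles 3 and leaving out 2i/LIF replicates 1 and 5 3. Leaving out 1 array gave 2 to 10. Between KOSR/LIF and serum, normexp and scan day as a block each gave 1, and leaving out 1 array 0 to 1. Between 2i/LIF and KOSR/LIF, the deposited values gave 6, no filter 2, cell line from source names 4, and each of normexp, raised dim signals, all-array detection, scan day as a block, slide, scan day 1 alone, cell line from titles, only the 2 media and leaving out 2i/LIF replicates 1 and 5 gave 0. Leaving out 1 array gave 0 to 1.

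The difference in detected share between 2i/LIF and serum (-0.881 points) reversed to 0.0651 with the positive-and-significant flag, and leaving out 1 array gave -5.01 to 4.70. Between KOSR/LIF and serum that range was -13.3 to -4.21, and between 2i/LIF and KOSR/LIF 3.48 to 11.9. The cause was not tested for any of these.

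Replicate numbers are shared between media, and the deviations of same-numbered arrays from their medium means correlated at -0.293 to 0.211. Some same-numbered arrays share a cell line per the titles or a scan day. These correlations therefore cannot show that the arrays share only a number. With a replicate block, 170, 20 and 65 region probes and 1, 0 and 0 strand pairs were called. The neighbour analysis and its alternative distances were not run, because gene positions on mm9 were not used here. Signal over background limits the region results: changes against a medium with no detected array are bounds.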
